A study of Mus musculus with 2 samples.

Results

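The genes described here make, carry and read retinoic acid, the active form of vitamin A, in cells of the embryonic mouse sinoatrial node, the region of heart muscle that paces the heartbeat. Members were the rows of the deposited gene table whose symbol is 1 of 9 listed genes. The rule uses no measured value, but earlier results of the data were known when the 9 genes were chosen. Of these, 7 were among the 12557 genes of the table: Aldh1a2, Dhrs3, Crabp1, Rara, Rarb, Rxra and Rxrb. Crabp2, which encodes a binding protein that passes retinoic acid to its receptor, and Rdh10, which encodes the main retinol-oxidising enzyme of the embryo, were not measured here.

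There were 2 libraries of ICR embryos, 1 per genotype. The mutant library came from embryos labelled Hcn4-CreERT2; Isl1f/f; Rosa-tdTomato, and the control library from embryos labelled Hcn4-CreERT2; Isl1+/+; Rosa-tdTomato. Both therefore carried a tamoxifen-inducible recombinase driven by Hcn4, a pacemaker channel gene, and the red reporter that it switches on. Tamoxifen was given to both at E10.5 (embryonic day). Tissue was taken 36 hours later, a time labelled E12.5 and given in the protocol as a range from day 12. Embryos of a genotype were pooled, cells bearing CD31 were depleted with beads, and tdTomato-positive cells were sorted, so each library is 1 pool and recombination outside the pacemaker cells was not checked.

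Retinol is oxidised to retinal by RDH10, a step that DHRS3 runs in reverse, and ALDH1A2 oxidises retinal to retinoic acid. CRABP proteins hold retinoic acid in the cytoplasm, CYP26 enzymes break it down, and in the nucleus it binds RAR proteins, which sit on DNA as pairs with RXR proteins. In the developing heart, retinoic acid is made by ALDH1A2 in the inflow region and later in the epicardium, and it is known for setting the extent of the atria and sinus venosus, the chamber from which the sinoatrial node arises.

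Both receptor genes that were higher in mutant cells, Rarb and Rara, are shown with sequence from their promoters, since retinoic acid receptors bind DNA hexamers of the kind searched here. The half-sites searched on both strands were AGGTCA or AGTTCA and, with G in the first place, GGGTCA or GGTTCA. They are in capitals below, and a match on the other strand reads as its reverse complement. Of 4 Rara windows, the one with the most half-sites is shown. The windows run from 250 bases before to 50 bases after a transcript start, 5′ to 3′ on the strand of the gene, from RefSeq on GRCm38.p6, which is not the mm9 build of the deposited table.
Rarb, chr14:16575427-16575726, minus strand: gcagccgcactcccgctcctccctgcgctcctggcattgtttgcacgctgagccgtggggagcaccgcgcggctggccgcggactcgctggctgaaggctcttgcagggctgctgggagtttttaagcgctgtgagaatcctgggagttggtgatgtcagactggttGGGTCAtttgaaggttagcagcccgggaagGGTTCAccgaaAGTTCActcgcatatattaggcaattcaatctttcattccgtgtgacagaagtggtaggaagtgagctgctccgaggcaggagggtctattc
Rara, chr11:98939461-98939760, plus strand: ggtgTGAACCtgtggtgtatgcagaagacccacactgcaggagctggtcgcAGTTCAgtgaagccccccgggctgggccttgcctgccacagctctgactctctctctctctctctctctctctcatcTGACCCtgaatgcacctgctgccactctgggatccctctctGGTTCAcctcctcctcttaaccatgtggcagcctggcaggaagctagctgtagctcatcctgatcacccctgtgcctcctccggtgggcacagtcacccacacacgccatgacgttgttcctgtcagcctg

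The Rarb window held 3 half-sites, at -83, -53 and -42 from the start, where -1 is the base before the transcript. Those at -53 and -42 stand in the same direction with 5 bases between them, which is the direct repeat called DR5, ending at -37. A DR5 made of these half-sites was present in 32 of 32851 RefSeq windows of this length, or 0.0974%. The Rara window held 4 half-sites and no direct repeat with 1, 2 or 5 bases between half-sites. Half-sites alone were common, present in 43.7% of all windows. For the 7 members with RefSeq windows there were 14 windows, of which 4 held a half-site and 1, that of Rarb, held a direct repeat. The windows with a half-site were 2 of Rara, 1 of Rarb and 1 of Rxra. That of Rxra, a gene that was lower in mutant cells, held 3 half-sites, as many as that of Rarb. Crabp2 and Rdh10 had no window. These matches describe letters in the windows and were not tested as binding sites.

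The values are RPKM, read numbers scaled to the length of counted exon and to the size of the library. They are scaled for comparison between genes. Between libraries the comparison also depends on the scaling, and the directions of Rxra and Rxrb turned with it, as given below. The library totals used were 110117186 reads for control and 119018888 for mutant. No label gave them. They were inferred as the smallest totals that turn the values of short RNA genes into whole reads. Since each genotype has 1 library, there is no spread between replicates and nothing was tested. Differences are given by size. The range beside each fold is a 95% interval (Clopper-Pearson, conditional on the sum of both libraries) from whole reads recovered from the RPKM steps. It covers counting error alone, and PCR copies, if counted as separate reads, would make it too narrow.

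Isl1, the targeted transcription factor gene, stood at 7.65 RPKM in control cells and 1.52 RPKM in mutant cells, 19.9% of control. Which exons of Isl1 the recombinase removes is not given, and reads from exons that it leaves would still count. Heart muscle genes were abundant, Tnnt2 (cardiac troponin T) reaching 2535 RPKM in control cells and 3109 RPKM in mutant cells, while Hcn4 itself was low, at 1.99 and 0.541 RPKM. Levels across the table were lower in mutant cells for 67.2% of genes, the median log2 ratio of mutant to control over all genes being -0.22. This shift was larger at low levels, where most of the members lie. The median was -0.63 for genes with a geometric mean of both libraries under 2 RPKM, -0.31 from 2 to 5 RPKM, -0.19 from 5 to 10 RPKM and -0.05 from 20 to 50 RPKM. Each gene of the table reached 1 RPKM in at least 1 library, which also shapes the spread of the lowest range.

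Among the 7 members, the 2 RAR genes were higher in mutant cells and the other 5 genes were lower. Rarb was 1.62-fold and Rara 1.59-fold higher, and the lower genes ranged from Rxrb, 1.105-fold lower, to Dhrs3, 1.46-fold lower. The lower genes lay among the many genes of the table that were lower, and the RAR genes went against that shift. By any size, 32.8% of all genes were higher. None of the 7 members reached 2-fold by plain ratio, beside 3.27% of all genes higher and 14% lower by that much.

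**Figure D1:**
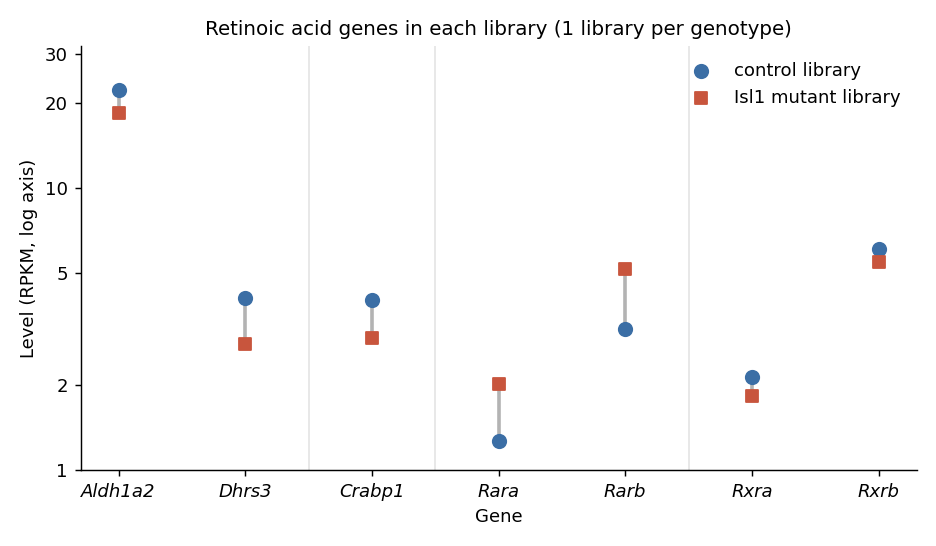
Level of each of the 7 measured genes in RPKM (log axis) in the control (circles) and Isl1 mutant (squares) libraries, 1 library each, grouped as enzymes, binding protein, RAR genes and RXR genes. Aldh1a2 was the highest in both libraries, at 22.4 and 18.5 RPKM, and the mutant square lies above the control circle for Rara and Rarb.

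A size call was made on the log2(RPKM + 1) scale, which understates the change of low genes, with a floor of 5 RPKM in the higher of both libraries. Of the 7 members, 3 reached that level, and Rarb did so through the mutant library alone. No member was called at 2-fold or at 1.5-fold. Of all 6372 genes above the floor, 1% were past 2-fold upward and 2.73% downward. At 1.5-fold these shares were 3.75% and 11.9%. By the plain ratio of RPKM over the whole table, 2 of 7 members were past 1.5-fold upward and 0 downward, beside 7.36% and 27.4% of all genes. The median log2 ratio of the members was -0.23, beside -0.22 over all genes, so the members as a set stood where the table did. With the median of each level range subtracted, 4 members were higher and 3 lower.

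Aldh1a2 (chromosome 9, 71063596 to 71144050, plus strand, mm9) encodes the retinal dehydrogenase that carries out the last step of retinoic acid synthesis. It stood at 22.4 RPKM in control cells and 18.5 RPKM in mutant cells. It was the most highly expressed member in both, above 86.0% of the genes of the table in control cells. The level was 1.21-fold lower in mutant cells (1.13 to 1.29 by counting error, on at least 1848 and 1651 reads). Its log2 ratio of -0.27 lay below the lower quartile of -0.24 for the 1191 genes between 20 and 50 RPKM.

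Of the related retinal dehydrogenase genes, Aldh1a1, known from the dorsal retina, went the other way. Its level was 1.01 RPKM in control cells and 2.27 RPKM in mutant cells, 2.23-fold higher (1.79 to 2.80 by counting error). Aldh1a3 was not measured here. Aldh1a2 made up 95.7% of the summed RPKM of the pair in control cells and 89.1% in mutant cells. The sum was 23.4 RPKM in control cells and 20.8 RPKM in mutant cells.

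Aldh1a2 is also a marker of the epicardium and mesothelium, the cell layers over the heart. Of 9 other markers of these layers, 8 were measured, of which 3 were higher and 5 lower in mutant cells. Their summed level was 73.5 RPKM in control cells and 90.4 RPKM in mutant cells. The keratin gene Krt19 differed most, at 9.77 and 28.8 RPKM, a difference larger than that of the sums, so the other markers together were slightly lower. The median log2 ratio of the list was -0.29. Sema3d, a semaphorin gene, was at 4.93 and 2.28 RPKM, and Lrrn4, a mesothelial membrane protein gene, at 6.27 and 3.48 RPKM. Upk3b, a uroplakin gene of mesothelium, was at 33.1 and 33.5 RPKM, and Wt1, an epicardial transcription factor gene, at 2.62 and 2.40 RPKM. In pooled cells, fewer cells of a type and less RNA per cell cannot be told apart, and the part of these cells in the level of Aldh1a2 was not tested.

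Dhrs3 (chromosome 4, 144482730 to 144518112, plus strand) encodes the reductase that returns retinal to retinol and so limits retinoic acid synthesis. It stood at 4.09 RPKM in control cells and 2.80 RPKM in mutant cells. The level was 1.46-fold lower (1.33 to 1.597 by counting error, on at least 1118 and 829 reads), the lowest ratio among the members. The log2 ratio was -0.54. Between 2 and 5 RPKM, 32.7% of 3162 genes had a lower ratio, so Dhrs3 lay inside the middle range of genes of its level. The ratio of Aldh1a2 to Dhrs3 level was 5.48 in control cells and 6.60 in mutant cells.

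Crabp1 (chromosome 9, 54612555 to 54620917, plus strand) encodes a cytoplasmic retinoic acid binding protein that is abundant in neural crest and mesenchyme. It stood at 4.01 RPKM in control cells and 2.95 RPKM in mutant cells. The level was 1.36-fold lower, with the widest interval of the members (1.082 to 1.71), since it rested on at least 176 and 140 reads. Its log2 ratio of -0.44 lay between the quartiles of -0.66 and 0.06 for genes of its level.

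Of the cell types in which Crabp1 is abundant, mesenchyme had lower markers in the same library, while few neural crest markers were measured. All 10 fibroblast and mesenchyme markers were lower, beside 67.2% of all genes. Of these markers, 6 were at least 2-fold lower, beside 14% of all genes. Their summed level was 547 RPKM in control cells and 250 RPKM in mutant cells. Of 10 neural crest and neuron markers 4 were measured, with sums of 18.6 and 15.8 RPKM. Of these, 3 were lower, near the share of all genes. Nefl, a neurofilament gene, was higher, at 3.36 and 7.65 RPKM. The neural crest genes Sox10 and Foxd3 were not measured here. None of the measured markers in these lists was at 0. Whether these cells have a part in the levels of Crabp1 or Dhrs3 was not tested.

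Rarb (chromosome 14, 17263356 to 17651381, minus strand), which encodes retinoic acid receptor beta, is both a receptor gene and a known target of retinoic acid through the DR5 printed above. It stood at 3.18 RPKM in control cells and 5.16 RPKM in mutant cells. The mutant level was 1.62-fold higher (1.48 to 1.78 by counting error, on at least 764 and 1341 reads), the highest ratio among the members. Its log2 ratio of 0.70 compares with a median of -0.31 for genes between 2 and 5 RPKM, of which 95.6% had a lower ratio and 6.51% were at least 1.5-fold higher. The 3′ end of Rarb lies 54 bases from that of Top2b, a topoisomerase gene on the opposite strand. Top2b was lower in mutant cells, at 10.6 and 5.995 RPKM.

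Rara (chromosome 11, 98789132 to 98836256, plus strand) encodes retinoic acid receptor alpha, the most broadly expressed receptor of the family. It stood at 1.27 RPKM in control cells and 2.02 RPKM in mutant cells, the lowest control level of the members. The mutant level was 1.59-fold higher (1.38 to 1.83 by counting error, on at least 319 and 548 reads). Its log2 ratio was 0.67, and 87.9% of the 3607 genes under 2 RPKM had a lower ratio, of which 13.4% were at least 1.5-fold higher. In the coordinates of the table, 37570 bases of Rara overlap those of Top2a, another topoisomerase gene, on the opposite strand. The library kit does not mark strand, so reads of shared stretches cannot be told apart. Top2a was at 25.7 and 26.6 RPKM.

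**Figure D2:**
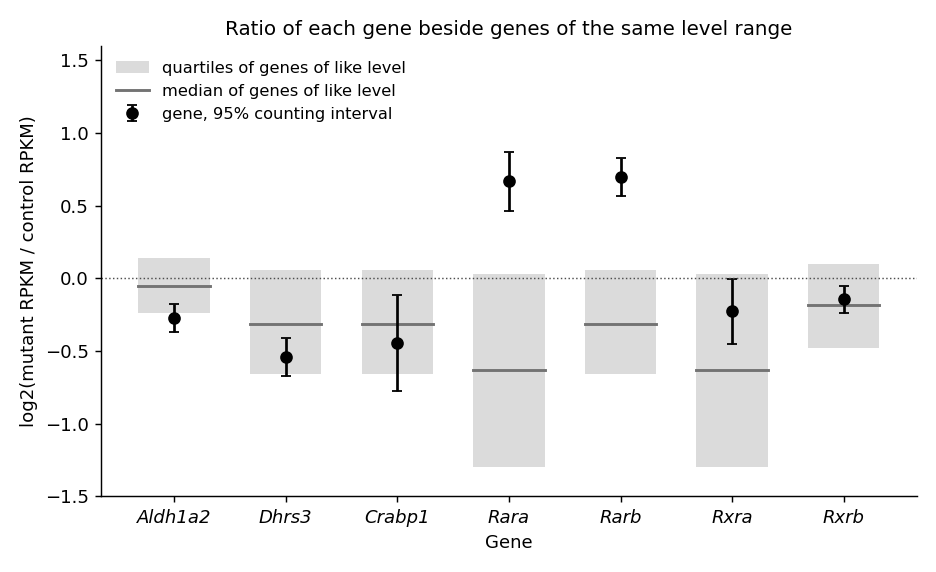
The log2 ratio of mutant to control RPKM for each member (points) with its 95% counting interval (bars), over the median (line) and quartiles (grey) of all genes in the same range of geometric mean level. Rara and Rarb, at 0.67 and 0.70, lie above the upper quartile of their ranges, and Aldh1a2, at -0.27, lies just under the lower quartile.

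Rarg, the third RAR gene and not a listed member, had 1.00 RPKM in control cells and 0.511 RPKM in mutant cells. Its level was 1.96-fold lower (1.42 to 2.74 by counting error). The RAR genes therefore did not go one way. Their summed level was 5.45 RPKM in control cells and 7.69 RPKM in mutant cells, 1.41-fold higher. Rarb made up 58.3% of the sum in control cells and 67.1% in mutant cells, Rara 23.3% and 26.3%, and Rarg 18.4% and 6.64%. The ratio of Rarb to Rara was 2.5003 in control cells and 2.55 in mutant cells, so both listed genes were higher by nearly the same factor.

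Rxrb (chromosome 17, 34168757 to 34175338, plus strand) encodes retinoid X receptor beta, a shared partner of RAR and of other nuclear receptors. It stood at 6.07 RPKM in control cells and 5.50 RPKM in mutant cells, the highest of the RXR genes in both. The level was 1.105-fold lower (1.04 to 1.18 by counting error, on at least 1943 and 1901 reads). This was the smallest difference among the members, and 54.2% of the 2188 genes between 5 and 10 RPKM had a lower ratio. The coordinates given for the immune gene H2-Eb1 span all 6582 bases of Rxrb, but that row was low, at 1.23 and 0.482 RPKM.

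Rxra (chromosome 2, 27531960 to 27618477, plus strand) encodes retinoid X receptor alpha, the RXR that heart muscle growth depends on in the mouse embryo. It stood at 2.14 RPKM in control cells and 1.83 RPKM in mutant cells. The level was 1.17-fold lower, and the interval (1.001 to 1.37, from at least 343 and 317 reads) nearly reached no difference. Its log2 ratio of -0.23 lay above the median of -0.63 for genes of its level. The direction of Rxra and Rxrb turned to higher, at log2 values of 0.0044 and 0.076 on the log2(RPKM + 1) scale, when the libraries were scaled by their trimmed mean log2 ratio, which was -0.23. Under the same scaling Aldh1a2, Crabp1 and Dhrs3 remained lower, with Aldh1a2 at -0.041. Rara and Rarb could only remain higher, since this scaling raises every ratio.

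Rxrg, the RXR gene of muscle and neurons, was at 2.32 RPKM in control cells and 2.34 RPKM in mutant cells (interval of the ratio 0.886 to 1.15). The RXR genes summed to 10.53 RPKM in control cells and 9.66 RPKM in mutant cells. Their make-up was similar in both, Rxrb taking 57.7% and 56.9%, Rxra 20.3% and 18.9%, and Rxrg 22.03% and 24.2%. The summed RXR level was 1.93 times the summed RAR level in control cells and 1.26 times in mutant cells. That ratio differed through the RAR genes more than through the RXR genes, whose sum was 1.09-fold lower.

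**Figure D3:**
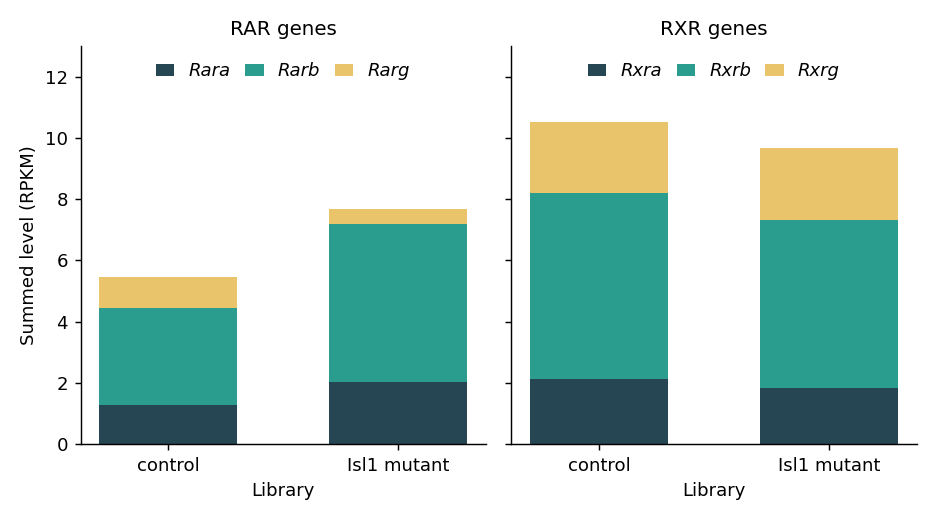
Summed RPKM of the RAR genes (left) and RXR genes (right) in the control and Isl1 mutant libraries, 1 library each, with each gene as a segment of the bar. The RAR bar is taller in mutant cells (5.45 to 7.69 RPKM) and its Rarg segment is smaller, while the RXR bars differ little (10.53 to 9.66 RPKM).

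In order of control level the members ran Aldh1a2, Rxrb, Dhrs3, Crabp1, Rarb, Rxra and Rara. Dhrs3 and Crabp1, at 4.09 and 4.01 RPKM, were not separated in control cells. In the mutant library Rarb came next after Rxrb, at 5.16 RPKM beside 5.50 RPKM, and Rara, at 2.02 RPKM, came above Rxra. All 7 members were above 1 RPKM in both libraries.

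The rest of the pathway was taken from a list of 85 genes in 9 role groups, the members among them, of which 50 were in the table. Of these, 15 were higher and 35 lower in mutant cells, near the 67.2% of all genes that were lower. The median log2 ratio was -0.26 beside -0.22 over all genes, or -0.036 with the level range medians subtracted. Above the floor of 5 RPKM there were 25 genes. By the size call 0 of them were past 1.5-fold upward and 6 downward, beside 3.75% and 11.9% of all genes there. None was called at 2-fold.

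Retinol uptake and carrier genes were represented by 5 of 9 genes, 3 higher and 2 lower. Lpl, the lipoprotein lipase gene and the highest of this group, was at 44.3 and 53.1 RPKM. Stra6, the retinol uptake receptor gene, singled out after its values were seen, was at 2.10 and 0.530 RPKM, 3.96-fold lower (2.57 to 6.31 by counting error, on at least 99 and 27 reads). Under 2 RPKM, its level range, 11.9% of genes had a lower ratio. Ttr, a carrier gene of the same group, went the other way, at 0.274 and 1.05 RPKM. It was 3.82-fold higher (1.73 to 9.56 by counting error, on at least 8 and 33 reads).

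Redox enzymes of retinol and retinal differed little. Of 15 genes 7 were in the table, 3 of them higher and 4 lower, and Dhrs3 had the lowest ratio. Adh5, the highest of the group and an enzyme with broad substrates, was at 69.2 and 72.8 RPKM. Among binding proteins, Fabp5, which can carry retinoic acid to the receptor PPARD, was lower as Crabp1 was, at 29.2 RPKM in control cells and 14.3 RPKM in mutant cells, 2.05-fold lower (1.91 to 2.19 by counting error). The 3 degrading enzymes, Cyp26a1, Cyp26b1 and Cyp26c1, were not measured here, though the RefSeq window of Cyp26a1 holds a DR5 of the searched half-sites, as that of Rarb does.

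Receptor cofactor genes were lower in 12 of 14 cases, all 14 being in the table. The median log2 ratio was -0.60, and 8 were at least 1.5-fold lower by plain ratio, beside 27.4% of all genes. With the median of each level range subtracted, the median of the group was -0.22. Ncor1, the corepressor that RAR binds without ligand, was at 7.27 and 4.24 RPKM, 1.71-fold lower (1.66 to 1.77 by counting error). Crebbp, an acetyltransferase coactivator gene, was at 9.84 and 5.79 RPKM, 1.70-fold lower (1.64 to 1.76 by counting error). Psmc5, a proteasome ATPase gene that is also a receptor-interacting factor and the highest of the group, was at 97.6 and 104.8 RPKM.

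Of 30 listed genes known to respond to retinoic acid, 13 were in the table, 4 higher and 9 lower, near the 67.2% of all genes that were lower. They had a median log2 ratio of -0.54, or -0.35 with the level range medians subtracted. By plain ratio Rarb was the 1 gene at least 1.5-fold higher, and 5 were at least 1.5-fold lower, beside 7.36% and 27.4% of all genes. The count higher is thus near that of the table. Meis2, a homeobox gene of the inflow tract, was at 5.14 and 3.05 RPKM, 1.69-fold lower (1.61 to 1.77 by counting error). Tbx5, a T-box gene of the posterior heart and the highest of the list, was at 51.5 and 52.6 RPKM. Tgm2, a transglutaminase gene singled out after its values were seen, had the next highest ratio, at 37.6 and 55.3 RPKM, 1.47-fold higher (1.44 to 1.495 by counting error).

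Other partners of RXR were lower in 6 of 6 measured cases of 10 listed, beside 67.2% of all genes. Their median log2 ratio was -0.26, or -0.08 with the level range medians subtracted. Nr4a1, an early response gene that tissue dissociation also induces, was the highest, at 120.4 RPKM in control cells and 65.9 RPKM in mutant cells. It was 1.83-fold lower (1.80 to 1.86 by counting error).

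**Figure D4:**
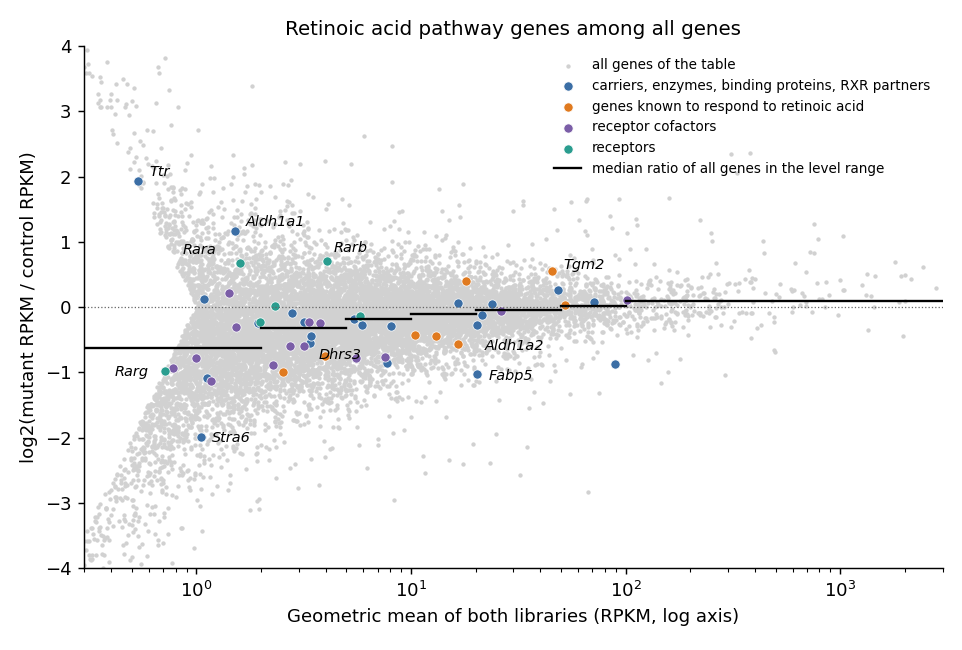
Log2 ratio of mutant to control RPKM against the geometric mean level of both libraries (RPKM, log axis) for all genes (grey, 120 of them outside the plotted range) and for the listed pathway genes by role (colours), with the median ratio of all genes in each level range as black lines. Rarb and Rara lie above the line of their ranges at 0.70 and 0.67, and most cofactor genes lie at or below it.

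Other cell types also differed between the pools. Summed markers were lower in mutant cells for red cells (399 to 68.9 RPKM), macrophages (41.8 to 7.57 RPKM) and endothelium (21.97 to 11.4 RPKM). Of the endothelial markers 6 were lower and 1 higher. Pacemaker markers were lower in 7 of 7 measured cases (66.7 to 31.5 RPKM), beside 67.2% of all genes. They include Isl1, the targeted gene, whose lower level was set by the design. Heart muscle markers, 5 of them higher and 2 lower, summed to 7925 RPKM in control cells and 10238 RPKM in mutant cells. None of the 6 foregut and lung markers was in the table. The part of these differences in the levels of Rara and Rarb was not tested.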

How the data were processed

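Tissue, sorting and sequencing are as described above, per the labels' protocols: 10 ng of total RNA, oligo(dT) capture, a SMARTer cDNA kit and 90 bp read pairs. The submitters' processing notes list Trim Galore, FastQC, Bowtie2, TopHat2 and genome mm9, without versions. The counting tool was not given in the sources used here, and no step of it was assumed. The deposited values, by the authors, were taken to be RPKM over constitutive exons. The header does not name this unit. It was identified from 287 short RNA genes, whose value times length gave whole reads within 0.01 in 287 control and 279 mutant cases. Such genes have 1 exon and cannot show which exons of other genes were counted. The deposited log2 fold, from the authors, matches log2 of mutant over control RPKM within 1.89e-07, and the authors' deposited signed fold, a score, was not used.

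Whole reads were recovered for 12345 genes (98.3%) as the smallest numbers that fit both values and a whole length. True numbers can be multiples, which would make intervals wider than needed. PCR copies or both mates of a pair, if counted separately, would make them too narrow. Where a symbol has several rows, that with the highest mean was used. Calls used log2(RPKM + 1) and the floors given above. No likeness of pattern between genes was measured, with 2 libraries. Named genes are the members, Isl1, overlapping genes, other genes of the receptor and enzyme families, pathway genes at least 1.5-fold different at 5 RPKM or more, and the highest gene of each role group. A gene that this rule names is not reported here. The members and lists were chosen with earlier results of these data known. Alternatives were other pseudocounts, scalings, floors and means. Scripts were tested on simulated data, in which the changed genes had higher levels than most members and larger changes than any member. That test does not cover changes of the size seen in the members. Python 3.11.15, pandas 2.3.3, numpy 2.4.6, scipy 1.17.1 and matplotlib 3.10.9 were used.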

Additional observations from a re-analysis of the deposited data

How the results depend on the processing

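No member reached 2-fold under any of the alternatives run. At 1.5-fold the main setting called 0 members. A pseudocount of 0.1 RPKM, median scaling, trimmed mean scaling and subtraction of the level range median each called 1 member, Rarb. Rarb passed the floor of 5 RPKM through the mutant library alone, and shares of all genes under these settings are not given here. The plain ratio with no floor, an alternative chosen after seeing the data, called 2, Rarb and Rara, both higher, beside 7.36% of all genes. The members' median of -0.15 on the log2(RPKM + 1) scale became 0.0044 with trimmed mean scaling and 0.042 with the level range median subtracted. The median of the wider list, -0.19, became -0.020 and -0.025 under the same settings and -0.055 with a floor of 10 RPKM. The cause was not tested. Aldh1a2, Crabp1 and Dhrs3 kept their direction in 6 of 6 alternatives each. Rara and Rarb did so too, but could not have turned lower. A change of pseudocount cannot change a direction, and each scaling or subtraction raised the ratio of every member. Rxra and Rxrb kept their direction in 4 of 6 alternatives. They turned to 0.20 and 0.042 with the level range median subtracted, beside the trimmed mean values given above. Leaving out a library was not possible, with 1 library per genotype. No paired analysis was possible because each genotype has 1 library and the labels give no replicate numbers. Read depth limits Crabp1 most, at 176 and 140 reads or a multiple of these.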
